A study of Rattus norvegicus with 6 samples.

Results

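The Hox genes of the rat were examined in bulk RNA from alveolar tissue, the part of the jaw bone that holds the teeth. Members were all rows of the count table whose symbol is Hox, a cluster letter from a to d and a number, and these were 35 of 37203 genes. The 35 rows comprised 10 of the Hoxa, 10 of the Hoxb, 8 of the Hoxc and 7 of the Hoxd cluster.

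The study set tooth movement with corticision, a surgical cut into the cortical bone around a tooth, against tooth movement alone. It gave 6 libraries from alveolar tissue of Rattus norvegicus, 3 titled case (numbers 5, 6 and 9) and 3 titled control (5, 6 and 10). All had tooth movement, and the source field gives no corticision for the case libraries and corticision for the control libraries, which is the reverse of how such titles are commonly used. Groups are named here by title, every difference is case minus control, and which field is right cannot be told apart here. Strain, age, sex, time of sampling and the number of animals are not given in the labels, and p-values therefore reflect only how much these libraries vary, which may be technical.

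Hox genes encode homeodomain transcription factors that lie in 4 clusters, and members with the same number in different clusters are paralogs. In the embryo, low numbers are active from the hindbrain backwards and higher numbers only further towards the tail, and the neural crest cells that fill the first pharyngeal arch and build the jaws carry no Hox expression. In adults, blood-forming cells of the marrow are a known site of Hox expression: Hoxb4 and Hoxa9 act in mouse blood stem and progenitor cells. The TALE proteins of the Pbx and Meis families bind DNA together with Hox proteins. Trithorax-type complexes with Kmt2a and Men1 keep Hox loci active, and Polycomb complexes keep them silent.

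Markers of bone-forming cells, which the labelled tissue should hold, were abundant: the 8 genes of the osteoblast list summed to between 44912 and 86505 CPM in case and between 51873 and 73186 CPM in control. CPM are counts in every 1000000 counts of a library, scaled by TMM, the trimmed mean of M-values. Case 5 and control 5 stood apart from the other 4 libraries: both lay above them in 4 of 15 marker lists (tooth-forming cells, erythroid cells, blood progenitors and B cell precursors) and below them in 4 (skeletal muscle, osteoclasts, T and NK cells, and neutrophil and myeloid precursors). Control 5 also had by far the most epithelial transcripts. Values are given beside the Hox rows they touch.

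The 4 clusters were nearly without reads in this tissue. The 35 rows held 233 of 74703719 counts, or 3.12 in every 1000000 (95% exact Poisson interval 2.73 to 3.55). Intervals here and below cover counting error only. Of the 35 rows, 22 were listed at 0 in all 6 libraries, which is 62.9% of them, against 30.1% of all genes in the table. Counts exceeded 3 in at least 1 library in 7 rows and reached 10 in 3 rows, Hoxb4, Hoxc6 and Hoxd9. These took 77.3% of the counts of the 35 rows. A row without a Hox symbol, matched to Hoxd8 by gene ID and described below, held 106 counts that are not in these totals. The smallest library held 10886303 counts and the largest 14433740, so that a row with no read could still have up to 3 (the one-sided 95% limit of a count of 0), which is 0.2 to 0.274 CPM after the TMM scaling.

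A row at 0 does not show that the gene is silent, since the table can miss reads of a used gene. Of 19 ubiquitous genes that were looked up, Hprt1, a purine salvage enzyme, had 0, 118 and 71 counts in case 5, case 6 and case 9 and 0, 0 and 1 in control 5, control 6 and control 10. The other 18 had counts in every library. Gene names are a further limit. RefSeq (assembly GRCr8) lists 39 Hox genes, and all 35 rows carry a current symbol. By gene ID, 5 rows with LOC names belong to Hox genes, of which 4 (Hoxa4, Hoxa10, Hoxc11 and Hoxd11) were at 0 throughout and 1, LOC100912936, is Hoxd8. The gene ID of Hoxa10 thus belongs to a LOC row, while a row of the symbol Hoxa10 exists as well, and the symbols Hoxa9, Hoxa10, Hoxa11 and Hoxc8 are also older names of other Hox genes. These 4 rows may therefore stand for another Hox gene.

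**Figure D1:**
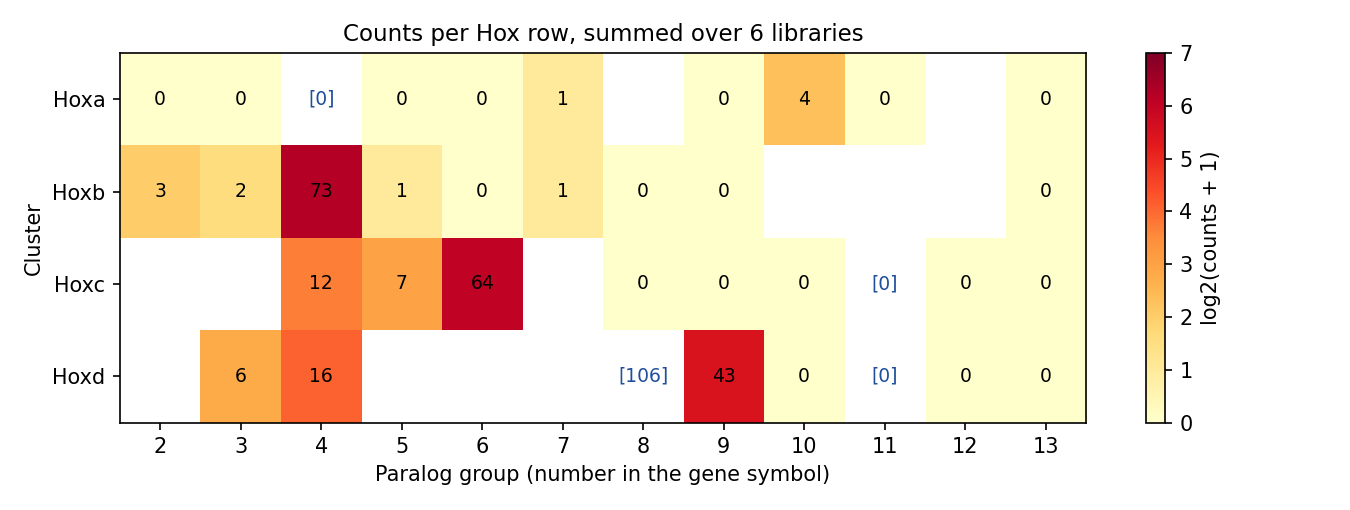
Counts summed over the 6 libraries for each Hox row, by cluster (rows) and paralog group from 2 to 13 (columns), with colour on a log2(counts + 1) scale. Numbers in square brackets are LOC rows matched to a Hox gene by gene ID, white cells without a number have no row, and the reads lie in groups 2 to 10, with 73 for Hoxb4, 64 for Hoxc6, 43 for Hoxd9 and 106 for the row matched to Hoxd8.

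Promoters of 3 neighbouring Hoxd genes are shown because the limit between rows with and without reads runs through them: the Hoxd8 row and Hoxd9 held 106 and 43 counts over the 6 libraries, and Hoxd10 held 0. Each sequence covers 250 bases before and 50 after the start of the gene, from RefSeq (GRCr8), on the plus strand of chromosome 3, with CpG dinucleotides in capitals. They lie at chr3:80014973-80015272 (Hoxd8), chr3:80007756-80008055 (Hoxd9) and chr3:80001697-80001996 (Hoxd10).
Hoxd8: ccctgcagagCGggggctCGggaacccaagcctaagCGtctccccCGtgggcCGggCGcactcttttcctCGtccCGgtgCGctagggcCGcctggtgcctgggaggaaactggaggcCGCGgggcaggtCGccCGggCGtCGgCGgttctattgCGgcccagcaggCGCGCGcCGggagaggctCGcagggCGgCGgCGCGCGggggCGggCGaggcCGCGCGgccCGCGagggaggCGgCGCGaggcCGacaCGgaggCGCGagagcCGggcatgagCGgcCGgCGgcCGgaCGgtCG
Hoxd9: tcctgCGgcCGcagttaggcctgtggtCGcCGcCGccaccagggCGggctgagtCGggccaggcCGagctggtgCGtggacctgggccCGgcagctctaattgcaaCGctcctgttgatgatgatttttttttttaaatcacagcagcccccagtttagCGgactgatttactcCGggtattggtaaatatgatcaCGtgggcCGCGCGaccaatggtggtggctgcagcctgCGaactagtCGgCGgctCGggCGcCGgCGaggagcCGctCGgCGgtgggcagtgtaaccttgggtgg
Hoxd10: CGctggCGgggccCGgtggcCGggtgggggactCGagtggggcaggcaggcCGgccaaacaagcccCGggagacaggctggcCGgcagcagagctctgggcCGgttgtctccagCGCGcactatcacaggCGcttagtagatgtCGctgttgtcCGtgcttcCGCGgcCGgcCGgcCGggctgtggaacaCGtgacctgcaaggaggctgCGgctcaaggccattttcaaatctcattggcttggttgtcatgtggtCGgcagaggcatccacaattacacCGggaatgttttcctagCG

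These promoters were rich in CpG whether or not their gene had reads. Hoxd8 held 49 CpG, Hoxd9 held 27 and Hoxd10 held 24, against a median of 7 over all 33469 promoters of the same length. The RefSeq table matched 20 Hox genes with 21 promoters. The 8 promoters of genes with a count had a median of 20.5 CpG (6 to 49) and a median GC content of 59.8%, and the 13 of genes listed at 0 had 24 CpG (9 to 42) and 64.7%, so the ranges overlapped. The CCAAT box, the binding letters of factor NF-Y (CCAAT on either strand), stood in 4 of the 8 and in 9 of the 13, with 37.5% of all promoters holding it. Hoxd9 held 2 and Hoxd10 held 1. The TATA box letters TATAAA on either strand stood in 2 of the 8, 2 of the 13 and 14.2% of all promoters. Those 2 of the 8 were both promoters of Hoxa10, placed by the 4 counts of the row with that symbol. By gene ID, Hoxa10 belongs to a LOC row at 0. All values of the 8 and the 13 therefore depend on how Hoxa10 is assigned. A match is a description of letters and not a bound site. Hoxb4 and Hoxc6 had no entry in the table.

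By position, reads were found in a run of neighbouring genes in the Hoxc and Hoxd clusters. In Hoxc, the rows Hoxc4, Hoxc5 and Hoxc6 had counts and Hoxc8, Hoxc9, Hoxc10, Hoxc12 and Hoxc13 had none. In Hoxd, the rows Hoxd3, Hoxd4 and Hoxd9 had counts, and Hoxd1, Hoxd10, Hoxd12 and Hoxd13 had none. In Hoxb, Hoxb4 stood nearly alone, with 73 of 80 counts of the cluster. In Hoxa, Hoxa7 had 1 count and the row Hoxa10 had 4. In the RefSeq spans Hoxa3 overlaps Hoxa4, Hoxa5 and Hoxa6, so reads of these genes could have been dropped. Of the 22 rows with numbers 2 to 9, 12 had a count, and together they held 229 of the 233. Hoxb1, which patterns the hindbrain, Hoxd1, and the 7 rows of groups 11 to 13, which pattern the limb ends and tail region, were listed at 0 in every library. So was Hoxa2, the gene that sets the identity of the second pharyngeal arch. A row with more reads is not thereby the more abundant transcript, since transcript lengths are not given with the table.

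Hoxb4, a regulator of blood stem cells, was detected in every library and was the only member with enough reads in enough libraries for the test. It had 13, 9 and 18 counts in case 5, case 6 and case 9, and 14, 8 and 11 in control 5, control 6 and control 10. In CPM these were 1.04, 0.60 and 1.51 in case and 1.23, 0.63 and 1.01 in control. The groups overlapped: the lowest library of each was number 6 (case 6 and control 6), and case 9 was the highest of all. Case averaged 1.05 ± 0.457 CPM and control 0.954 ± 0.301 CPM (SD, n = 3 each). The log2 fold change was 0.13 (SE 0.51), with an edgeR quasi-likelihood p of 0.803 and a Benjamini-Hochberg adjusted p of 0.999 over all 16066 tested genes. It was -0.22 without case 9 and -0.07 without control 6, so even its sign rested on single libraries.

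No member was called between case and control. The edgeR quasi-likelihood test called 0 of the 1 tested member at an adjusted p under 0.05, where it called 0 of 16066 genes, or 0%, and the member also had no unadjusted p under 0.05, where 666 genes, or 4.15%, had one. DESeq2 called 21 genes over the whole table and limma-voom 0, and neither called Hoxb4. The other 34 rows fell below the filter on low counts, so no fold change is given for them. With 3 libraries against 3, an exact permutation test of a single gene cannot go below 0.1.

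Hoxc6, known for patterning of the thoracic skeleton, varied more between the libraries of a group than between the group means. It had 19, 6 and 2 counts in case 5, case 6 and case 9 (1.52, 0.40 and 0.17 CPM), and 24, 6 and 7 in control 5, control 6 and control 10 (2.10, 0.47 and 0.64 CPM). The library numbered 5 was the highest of each group. Case averaged 0.695 ± 0.722 CPM and control 1.07 ± 0.896 CPM (SD, n = 3 each), a difference of -0.38 CPM that was 0.14 CPM without control 5 and -0.79 CPM without case 5. The 95% exact Poisson interval of control 5 (1.35 to 3.13 CPM) lay above those of case 6 (0.146 to 0.869), case 9 (0.0204 to 0.607), control 6 (0.173 to 1.03) and control 10 (0.257 to 1.32), while that of case 5 (0.914 to 2.37) overlapped it. These intervals compare libraries, not conditions.

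Its neighbours were thinner. Both had their highest count in control 5, but by few reads, and the exact Poisson intervals overlapped those of the other libraries. Hoxc5 had 0, 2 and 0 counts in case 5, case 6 and case 9 and 5, 0 and 0 in control 5, control 6 and control 10. Hoxc4, which in mouse B cells activates the gene of the antibody-editing deaminase, had 1, 3 and 3 counts in case 5, case 6 and case 9 and 4, 0 and 1 in control 5, control 6 and control 10. In the RefSeq spans Hoxc6 overlaps both Hoxc5 and Hoxc4, so reads of these 3 rows could have been shared among them or lost. Summed, the 3 rows had 20, 11 and 5 counts in case 5, case 6 and case 9 and 33, 6 and 8 in control 5, control 6 and control 10. The case sum averaged 0.917 ± 0.610 CPM and the control sum 1.36 ± 1.33 CPM (SD, n = 3 each), so the spread within each group exceeded the difference of -0.45 CPM, which was 0.31 CPM without control 5.

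In control 5, the library with the most Hoxc reads, Hoxd9 and Hoxd4 had none, while Hoxd3 and the row matched to Hoxd8 had their highest level. Hoxd9, known for patterning of the upper limb segment and the lower spine, had 5, 9 and 11 counts in case 5, case 6 and case 9 (0.40, 0.60 and 0.92 CPM), and 0, 5 and 13 in control 5, control 6 and control 10 (0, 0.39 and 1.19 CPM). The groups overlapped completely, and control held both the lowest and the highest library. The 95% exact Poisson interval of the count of 0 in control 5 reached up to 0.323 CPM. It lay below those of case 9 (0.462 to 1.65) and control 10 (0.633 to 2.03) and overlapped those of the other libraries. Case averaged 0.641 ± 0.265 CPM and control 0.527 ± 0.605 CPM (SD, n = 3 each), a difference of 0.11 CPM that was -0.15 CPM without control 5 and -0.03 CPM without case 9.

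Hoxd4 and Hoxd3, genes of the neck and hindbrain level, had few reads. Hoxd4 had 7, 1 and 2 counts in case 5, case 6 and case 9 and 0, 4 and 2 in control 5, control 6 and control 10. Hoxd3 had 1, 0 and 1 counts in case and 4, 0 and 0 in control, in the same order of libraries. At this depth no difference between the groups was detectable in either row. The other 6 rows with a count were at or near a single read: Hoxb2 had 3 and the row Hoxa10 had 4 counts over the 6 libraries, Hoxb3 had 2, and Hoxb5, Hoxb7 and Hoxa7 had 1 each.

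**Figure D2:**
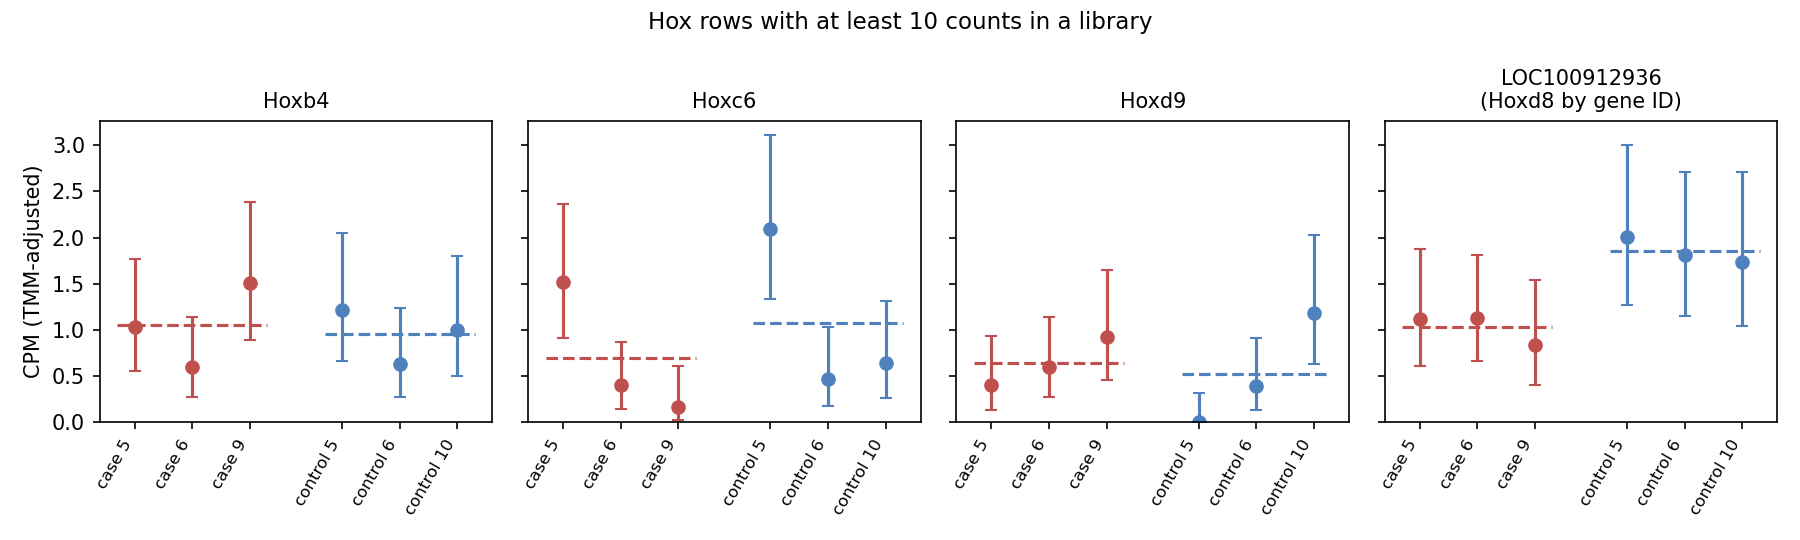
CPM of the 3 Hox rows that reached 10 counts in a library and of the row matched to Hoxd8, in the case libraries (red, left) and the control libraries (blue, right). Points are libraries, bars are 95% exact Poisson intervals of the counts, and dashed lines are group means; the case and control libraries overlap for Hoxb4, Hoxc6 and Hoxd9 and lie apart for LOC100912936 (0.84 to 1.13 against 1.74 to 2.01 CPM).

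The row LOC100912936, which RefSeq gives as Hoxd8 by gene ID, held more reads than any member and was singled out after its values were seen. It had 14, 17 and 10 counts in case 5, case 6 and case 9 and 23, 23 and 19 in control 5, control 6 and control 10. In CPM these were 1.12, 1.13 and 0.84 in case and 2.01, 1.81 and 1.74 in control, so the groups did not overlap and every case library stood below every control library. Such a separation with case lower was found in 4.42% of the tested genes. Case averaged 1.03 ± 0.164 CPM and control 1.85 ± 0.143 CPM (SD, n = 3 each), a log2 fold change of -0.84 (SE 0.36). The edgeR quasi-likelihood p was 0.0502 and the Benjamini-Hochberg adjusted p was 0.999, so the difference did not pass. Over the 15 alternatives run for this row the fold change stayed negative, from -0.91 to -0.72, with unadjusted p from 0.0505 to 0.233 and adjusted p from 0.461 to 1.0.

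Summed over the family, the groups differed by less than the spread between their libraries. The 35 rows summed to 48, 32 and 40 counts in case 5, case 6 and case 9 and to 53, 26 and 34 in control 5, control 6 and control 10. Both libraries numbered 5 were the highest of their group and both numbered 6 the lowest. The summed level averaged 3.11 ± 0.881 CPM over the case libraries and 3.26 ± 1.30 CPM over the control libraries (SD, n = 3 each). The difference of -0.16 CPM was 0.53 CPM without control 5, 0.33 CPM without case 6, -0.52 CPM without case 5 and -0.76 CPM without control 6. With the row matched to Hoxd8 added it was -0.98 CPM. The number of rows with a count was 7, 8 and 7 in case 5, case 6 and case 9 and 6, 7 and 5 in control 5, control 6 and control 10. Thinned to the smallest library total, the expected numbers were 6.71, 7.19 and 6.92 in case and 6, 6.38 and 4.96 in control, in the same order of libraries.

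The libraries also differed in the cells they held, and those values stand beside the Hox rows. In this bulk tissue, fewer cells of a type and less RNA per cell cannot be told apart. Markers of the oral epithelium (7 of 8 listed genes in the table, none at 0 throughout) summed to 40.8, 55.6 and 29.1 CPM in case 5, case 6 and case 9 and to 3603, 38.2 and 19.4 CPM in control 5, control 6 and control 10. Control 5, the library with the most Hoxc reads and no Hoxd9 read, thus held most of the epithelial transcripts. It also held the fewest of skeletal muscle, whose markers (8 of 8 in the table) summed to 120.1, 380.6 and 1327 CPM in case 5, case 6 and case 9 and to 9.37, 1076 and 1058 CPM in control 5, control 6 and control 10. Case 5 and control 5 were the lowest of their groups both in these markers and in Hoxd9. Osteoclast markers (7 of 8 in the table) summed to 3099, 4419 and 4766 CPM in case and 3350, 5747 and 6165 CPM in control, and T and NK cell markers (8 of 8) to 122.9, 246.4 and 312.1 CPM in case and 98.0, 207.7 and 145.3 CPM in control, in the same order of libraries. Markers of tooth-forming cells (8 of 8 in the table) summed to 459.6, 2.93 and 2.35 CPM in the case libraries and 89.8, 7.79 and 0.64 CPM in the control libraries, in the same order. Case 5 and control 5, the libraries with the most Hoxc6 reads, were the highest of their groups. Erythroid markers (8 of 8 in the table) summed to 1654, 290.4 and 628.8 CPM in case and 2114, 1257 and 757.1 CPM in control, again with both libraries numbered 5 highest. The part of these cells in the Hox values was not tested.

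Blood-forming cells were present in every library. Markers of blood progenitors (10 of 12 listed genes in the table, none at 0 throughout) summed to 315.1, 281.1 and 241.6 CPM in case 5, case 6 and case 9 and to 353.0, 281.7 and 271.7 CPM in control 5, control 6 and control 10. Both libraries numbered 5 had the highest sums, and the groups overlapped. Tal1, with the most reads of the list, was at 110.4, 61.9 and 56.7 CPM in case and 149.1, 78.2 and 69.2 CPM in control. The genes of the list did not all follow the number: Kit and the receptor gene Flt3 were highest in case 6 (29.0 and 18.3 CPM). Kit, the receptor for stem cell factor, was at 17.1, 29.0 and 16.6 CPM in case and 17.9, 13.9 and 16.2 CPM in control. Leukocyte markers (8 of 8 in the table) summed to 2468, 3530 and 3313 CPM in case and 1773, 2932 and 2153 CPM in control. Neutrophil and myeloid precursor markers (10 of 10) ranged from 9187 to 20733 CPM in case and from 7204 to 20537 CPM in control. Markers of B cell precursors (10 of 10), at 295.6, 109.8 and 130.5 CPM in case and 209.6, 169.8 and 83.3 CPM in control, were highest in the libraries numbered 5. In case 6, Igll1, Rag1 and Vpreb2 of this list had 0 counts, and Cd79b (62.6 CPM) and Ebf1 (37.9 CPM) held most of the sum. Hoxa9, named with Hoxb4 for mouse blood cells, was listed at 0 in every library, and its row may stand for another Hox gene. The source of the Hoxb4 reads was not tested.

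**Figure D3:**
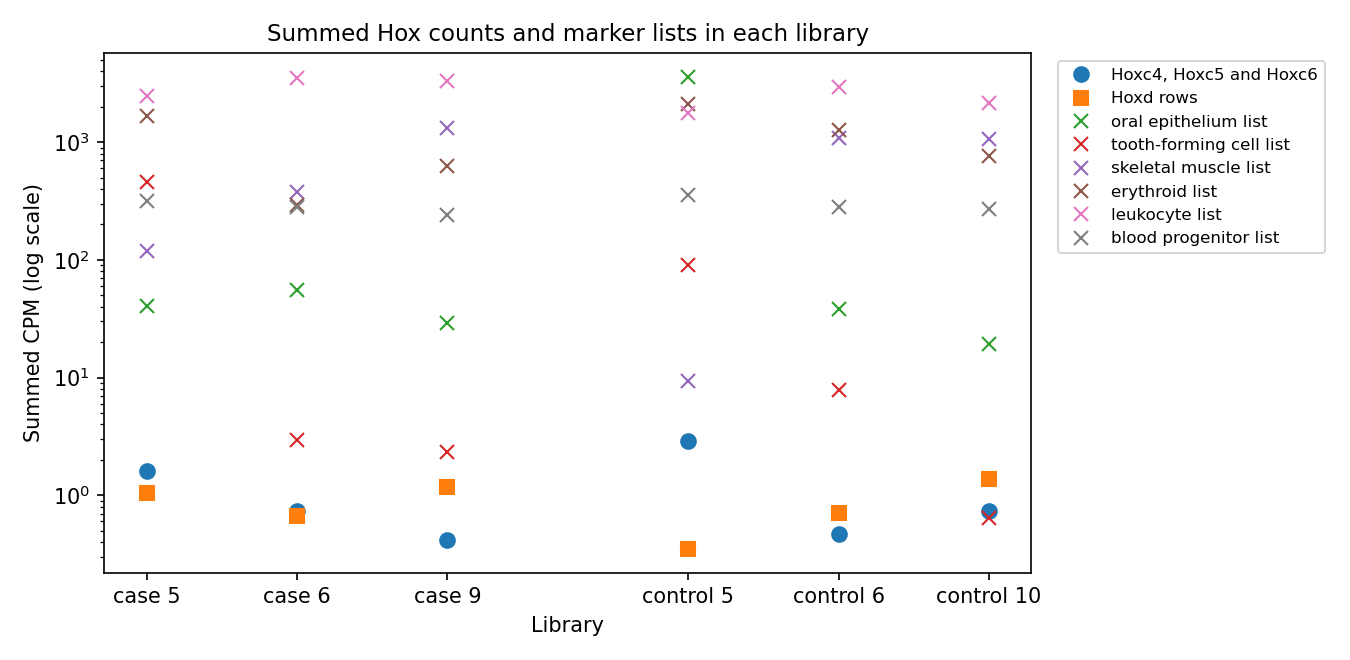
Summed CPM (log scale) of Hoxc4, Hoxc5 and Hoxc6, of the 7 Hoxd rows and of 6 marker lists in each library, case on the left and control on the right. Control 5 has the highest sum of the Hoxc rows, the lowest of the Hoxd rows, a skeletal muscle sum of 9.37 CPM and an oral epithelium sum of 3603 CPM against at most 55.6 CPM elsewhere. With the row matched to Hoxd8 added, the Hoxd sum was 2.16, 1.80 and 2.02 CPM in case 5, case 6 and case 9 and 2.36, 2.52 and 3.11 CPM in control 5, control 6 and control 10, and control 5 was no longer the lowest.

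The homeobox genes of the jaw itself were well covered in the same libraries. All 20 listed genes had reads, 36139 in all against 233 for the Hox rows, and summed to 640.4, 394.8 and 382.7 CPM in case 5, case 6 and case 9 and to 569.9, 463.8 and 478.1 CPM in control 5, control 6 and control 10. Dlx5, a gene of jaw identity in the first arch, averaged 52.0 ± 10.99 CPM in case against 42.4 ± 11.8 CPM in control (SD, n = 3 each). Dlx3, a related gene of the jaw and the teeth, averaged 91.9 ± 24.1 CPM in case against 94.3 ± 24.0 CPM in control. Of 18 tested genes of this list 0 passed over all genes, 14 had a fold change below 0, and their median log2 fold change was -0.06, against -0.02 over all tested genes.

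The partners of Hox proteins were present although the Hox rows were nearly empty. All 9 TALE genes had reads, and 8 could be tested, of which 0 passed, 7 had a fold change below 0, and their median log2 value was -0.17. Meis1, a Hox partner in blood progenitors, was at 5.59, 6.12 and 4.88 CPM in case 5, case 6 and case 9 and 4.29, 6.06 and 8.13 CPM in control 5, control 6 and control 10, with overlap. Pbx3 was at 26.9, 18.2 and 19.6 CPM in case and 28.0, 25.0 and 24.1 CPM in control. It was highest in the libraries numbered 5, as was Meis2 among the case libraries (4.23, 1.33 and 1.43 CPM against 3.06, 3.86 and 2.19 CPM in control). Pbx2 had separate groups, with a mean of 73.7 ± 3.62 CPM in case against 63.7 ± 3.39 CPM in control (SD, n = 3 each), with a log2 fold change of 0.21 (SE 0.13) and an unadjusted edgeR p of 0.14. Of the 8 tested TALE genes 2 had separate groups, where 8.47% of all tested genes had. The other was Pknox2, named after its values were seen, which was lower in case at 6.95, 4.86 and 6.98 CPM against 8.93, 8.19 and 9.87 CPM in control, with a log2 fold change of -0.52 (SE 0.25) and an unadjusted edgeR p of 0.0703.

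Both kinds of chromatin complex that act on Hox loci were expressed. Of 11 activator genes 0 passed, 8 had a positive fold change and the median log2 fold change was 0.07. Men1, the menin subunit that joins Kmt2a to its targets, averaged 78.9 ± 3.58 CPM in case against 69.3 ± 3.97 CPM in control. Kmt2a, the methyltransferase itself, was at 103.1, 41.1 and 46.4 CPM in case 5, case 6 and case 9 and 82.6, 50.2 and 42.0 CPM in control 5, control 6 and control 10, highest in the libraries numbered 5 of both groups. Of 18 Polycomb genes 0 passed, 12 lay below 0 and their median log2 fold change was -0.04. The largest read count among them was that of Phc2, with a mean of 148.2 ± 9.74 CPM in case against 180.2 ± 11.2 CPM in control (SD, n = 3 each), with an unadjusted edgeR p of 0.0739.

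**Figure D4:**
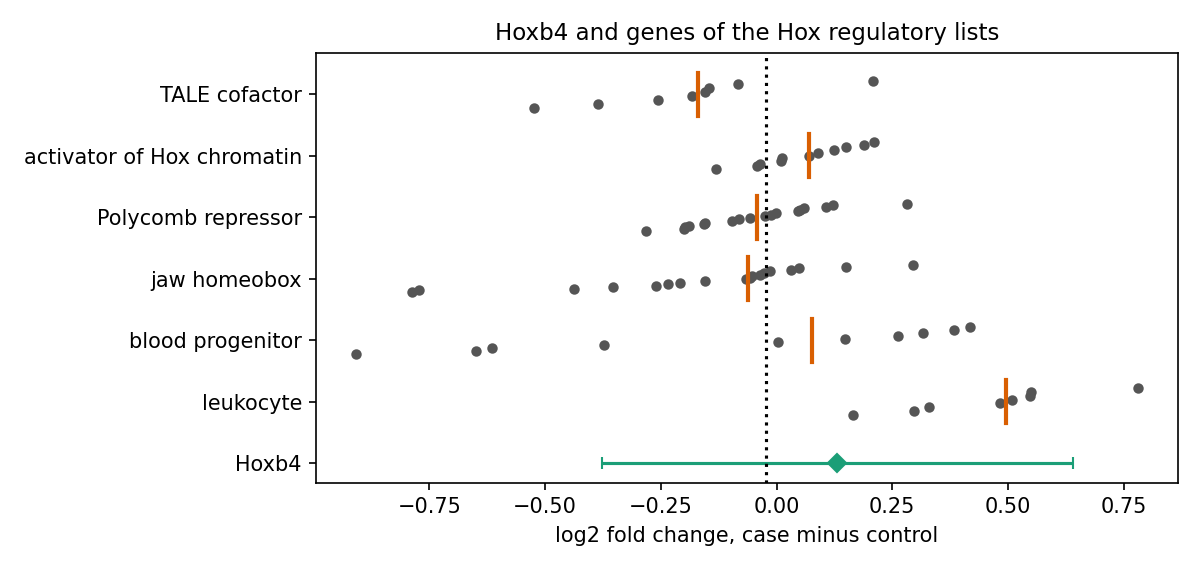
Log2 fold change, case minus control, of Hoxb4 (green, bar is the standard error) and of each tested gene of 6 lists (grey points), with list medians in orange and the median of all tested genes (-0.02) as a dotted line. The Hoxb4 bar spans 0, and list medians run from -0.17 (TALE cofactors) to 0.50 (leukocytes).

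Hox cluster microRNAs and the ParaHox and Evx genes were at or near 0. Of 18 listed RNAs of the clusters 6 were found as rows, all of them microRNAs (Mir10a, Mir10b, Mir196a, Mir196b, Mir196c and Mir615), with no count in any library, and the long RNAs of the list, such as Hotair, were not analysed here. Whether these libraries could record such short RNAs was not tested, so these rows do not show that the microRNAs were absent. Of the 8 ParaHox and Evx genes, 6 were listed at 0 throughout, including Evx1 and Evx2, which lie beside the Hoxa and Hoxd clusters. Cdx1, an activator of Hox genes in the embryo, had 2, 2 and 7 counts in case 5, case 6 and case 9 and 7, 2 and 1 in control 5, control 6 and control 10, and Cdx2 had 3 counts, all in control 6.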

How the data were processed

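Per the labels' protocols, TRIzol was used to extract total RNA, and the Ion Total RNA-Seq Kit to prepare libraries for single-end reads. What the authors deposited is a table of raw counts, whole numbers by gene symbol, for 6 libraries. How reads were aligned and counted, on which build and annotation and with what use of strand, is not given in the sources used here, and reads of overlapping Hox genes, antisense RNAs and near-identical copies could have been shared or dropped. Columns were matched to libraries by title.

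The whole table was filtered with edgeR's filterByExpr (16066 genes left), scaled by TMM and fitted in edgeR 4.0.16 (R 4.3.3) for its quasi-likelihood test, with the group as the only term and a Benjamini-Hochberg threshold of 0.05. CPM are counts in every 1000000 TMM-adjusted counts. DESeq2 1.42.0, limma 3.58.1 (voom), other scalings and filters, leaving out libraries and the title number as a block were alternatives. Sums over Hox rows have no test. Members and lists (osteoblast, osteoclast, endothelium, skeletal muscle, T and NK cell, oral epithelium, tooth-forming, erythroid, blood progenitor, leukocyte, neutrophil and myeloid precursor, B cell precursor, jaw homeobox, TALE, activator, Polycomb, cluster RNA, ParaHox and ubiquitous genes) were chosen with earlier results of these data known. Rows with at least 10 counts in a library are given by library, and other lists by up to 3 genes with the most counts and by Meis1, Meis2 and Pbx3, some genes under this rule not being reported here; Kit, Cd34, Flt3, Procr, Pknox2, Pitx1, Kmt2a, Hprt1 and LOC100912936 were among those named outside this rule, after their values were seen. RefSeq names, gene IDs and promoters are of GRCr8.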

Additional observations from a re-analysis of the deposited data

How the results depend on the processing

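Under all 15 alternatives edgeR, DESeq2 and voom called 0 Hox members and 0 of them had an unadjusted p under 0.05. Only 1 to 3 members could be tested in each, Hoxb4 always among them, apart from 13 with no filter. Adding the row matched to Hoxd8, chosen after seeing the data, also gave 0. Over the whole table, 0 genes were called with every edgeR and voom setting except that leaving out 1 library gave 0 to 2 (2 without control 5), and DESeq2 called 21. Genes at an unadjusted p under 0.05 numbered 666, 1113 with no filter, 2294 without both libraries numbered 5, and 367 (without case 6) to 1566 (without case 5) with 1 library left out. The fold change of Hoxb4 ranged from -0.22 to 0.42 with 1 library left out; it was negative without case 9 (-0.22) and without control 6 (-0.07), and the cause was not tested. With the title number as a block, Hoxb4 was at -0.16, and 653 genes, 0 of them Hox genes, had an unadjusted p under 0.05; the deviations of same-numbered libraries correlated at 0.38 (number 5) and 0.14 (number 6), but only 2 numbers are shared, so they were not taken as pairs. Of the 35 rows, 13 had a count; 7 had more than 3 counts in a library, 6 had a count in at least 3 libraries, and 11 to 13 had one with 1 library left out. The summed Hox difference ranged from -0.76 to 0.53 CPM with 1 library left out. Depth limits every member: at 1 to 24 counts a library, counting error alone is wide.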

Other observations

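Pitx1, a homeobox gene of the hindlimb, the jaw and the oral epithelium, was looked at after its values were seen. It had 8, 4 and 5 counts in case 5, case 6 and case 9 and 250, 2 and 3 in control 5, control 6 and control 10, so 1 library held nearly all of its reads. That library also held the highest oral epithelium sum (3603 CPM) and the highest Hoxc6 count (24). The part of the epithelium in these values was not tested.

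Procr, a surface receptor of mouse blood stem cells and of endothelium, and Cd34, a marker of progenitors and of vessels, were named after their values were seen. They were the 2 of 10 tested genes of the blood progenitor list with an unadjusted edgeR p under 0.05, where 4.15% of all tested genes had one. The list as a whole did not lean the same way: of its 10 tested genes 6 had a positive and 4 a negative fold change, with a median log2 fold change of 0.08, against -0.02 over all tested genes, and 0 passed over all genes. Separate groups were found in 3 of the 10, where 8.47% of all tested genes had them. Of the 3, Procr was lower in case, with a log2 fold change of -0.91 and an unadjusted edgeR p of 0.0034. Flt3, a growth factor receptor of early blood cells, and Runx1, a transcription factor of blood formation, were higher in case. Their log2 fold changes were 0.42 and 0.15, with unadjusted edgeR p of 0.0758 and 0.299. Cd34 stood at 40.4, 20.2 and 25.8 CPM in case 5, case 6 and case 9 and at 36.2, 52.7 and 46.6 CPM in control 5, control 6 and control 10, with a log2 fold change of -0.65 and an unadjusted edgeR p of 0.0497. Endothelium markers (8 of 8 in the table) summed to 683.2, 652.6 and 572.4 CPM in case and 707.8, 721.6 and 807.5 CPM in control, so these sums were lower in every case library.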
